A study of Mus musculus with 6 samples.

Results

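The 10 genes examined here are 3 transcription factors of chondrocytes (Sox9, Sox5 and Sox6) and 7 proteins that cartilage cells secrete or carry at their surface (Chad, Cilp, Cilp2, Prg4, Cytl1, Snorc and Ucma). They were chosen by name from the 48440 genes of a read count table, with earlier results of these data known. Of the 10, 9 were listed under their present symbols, and Snorc was listed under the older symbol 3110079O15Rik. The filter on low counts kept 9 of the 10 among 15257 tested genes, and Ucma was not tested.

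Rabbit bone marrow stromal cells had been made into engineered cartilage (BEC), wrapped in an electrospun membrane of polycaprolactone and collagen, and placed under the skin of mice. In both groups the hosts were male BALB/c nude mice, which lack mature T cells, aged 6 to 8 weeks on purchase. The membrane of the 0%-Axitinib group held no drug, and that of the 3%-Axitinib group held axitinib, an inhibitor of VEGF receptor kinases, at 3% of the weight of polycaprolactone and collagen. RNA was sequenced 12 weeks after implantation from 3 samples per group, which the study describes as murine tissue around BEC. By its methods the constructs were harvested together with the entangled murine tissue, and reads were mapped to the mouse genome. Rabbit RNA may thus have been present, and its share was not tested. At 12 weeks the study scored cartilage in every 3%-Axitinib construct examined and in only some of the 0%-Axitinib constructs. The labels call the 0%-Axitinib samples untreated, and they were read as drug-free membranes because the series design names the 0%-Axitinib and 3%-Axitinib groups. The labels do not say which samples came from which mouse. By the study's methods a mouse carried more than 1 construct of its group, so the 3 samples of a group may come from fewer than 3 mice, and the p-values measure the spread between samples.

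SOX9 is the transcription factor that chondrocytes need to form and to keep their identity, and it binds enhancers of collagen and aggrecan genes. SOX5 and SOX6 carry no activation domain of their own and bind next to SOX9, where they raise its output. The matrix that these factors help to build contains, beside its main collagens and aggrecan, smaller amounts of proteins that tie cells to collagen, lubricate the surface or mark zones of the tissue.

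Reads on genes numbered 17761968, 16716411 and 18005908 in 0%-Axitinib replicates 1, 2 and 3, and 9225518, 11686084 and 18403795 in 3%-Axitinib replicates 1, 2 and 3. Levels are given as CPM, the reads of a gene per 1000000 reads on tested genes, scaled by TMM factors. A count of 3, taken as the limit of detection, corresponded to between 0.163 and 0.325 CPM of all gene reads, for counting error only. Unmapped reads made up 5.47%, 3.84% and 14.9% of all reads in 0%-Axitinib replicates 1 to 3. In the 3%-Axitinib group they made up 48.4%, 29.2% and 16.8%. Whether rabbit transcripts were among the unmapped reads or among those counted on mouse genes was not tested.

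Chad, Prg4 and Snorc were higher in the 3%-Axitinib group by more than 5 on the log2 scale, while Sox9 was higher by 1.32 and Sox5 and Sox6 by less than 1. The study's criterion asks for a change of 1.5-fold or more together with an unadjusted p, here from edgeR's quasi-likelihood test, of 0.05 or less. Sox9, Chad, Prg4 and Snorc met it, that is 4 of 9 tested members, all higher, against a background of 9.54% of all tested genes that met it in that direction. As the members were chosen with earlier results of these data known, such counts describe them and are no test of the set. No member met it as lower, where the background was 11.7%. The same 2 shares are the background for the counts of the marker lists below. Snorc entered the test through its 3%-Axitinib counts alone and gives no support to that count, which is 3 of 8 without it. With p adjusted over all genes by edgeR's quasi-likelihood test, 0 of 9 members were at or below 0.05, against 0.00655% of all tested genes. At an unadjusted p of at most 0.05 the number of members was 4, or 3 of 8 without Snorc, beside 3585 of all tested genes (23.5%). DESeq2 placed 4 members at an adjusted p of at most 0.05, or 3 of 8 without Snorc, beside 1960 of all tested genes (12.8%).

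**Figure D1:**
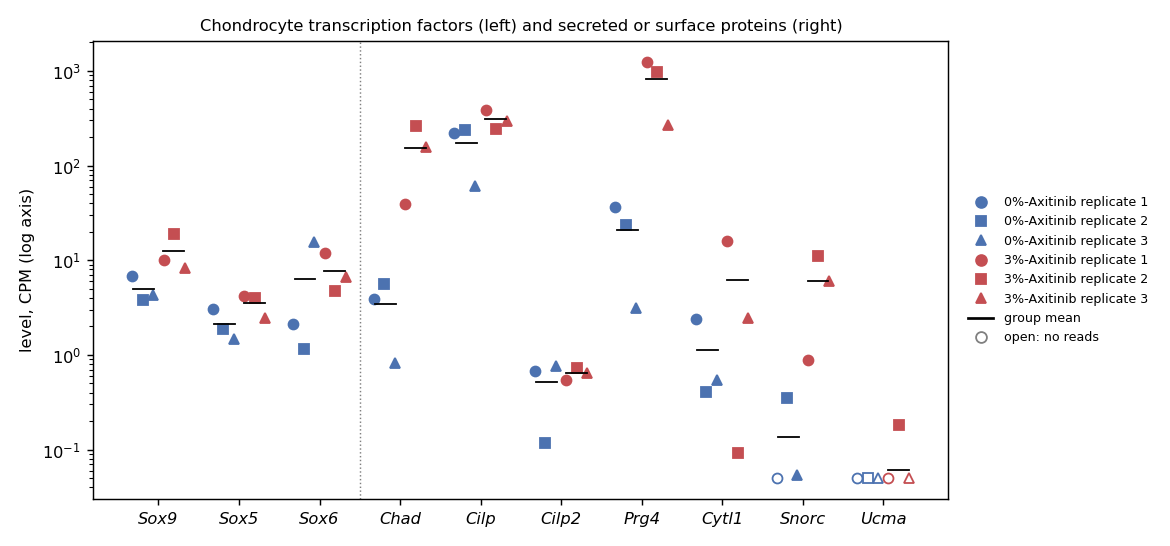
Level of each of the 10 genes in each of the 6 samples, in CPM on a log axis, with group means as bars and open symbols for samples with no reads. For Chad, Prg4 and Snorc every 3%-Axitinib sample lies above every 0%-Axitinib sample, whereas Sox5, Sox6, Cilp2 and Cytl1 overlap between the groups.

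Among the transcription factors, Sox9 had 6.89, 3.79 and 4.34 CPM in 0%-Axitinib replicates 1 to 3 and 10.0, 19.1 and 8.34 CPM in 3%-Axitinib replicates 1 to 3. The groups did not overlap, and 3%-Axitinib replicate 2 was the highest. The log2 fold change was 1.32 (SE 0.43, 95% confidence interval 0.31 to 2.33), with an adjusted p of 0.142 by edgeR's quasi-likelihood test, higher in 3 of 3 samples. Sox9 no longer met the criterion without 0%-Axitinib replicate 2, at a log2 fold change of 1.15, or without 3%-Axitinib replicate 2, at 0.87. Nor did it without 0%-Axitinib replicate 3 and 3%-Axitinib replicate 2 together, a choice made after seeing the data, at 0.77. In bulk tissue, more cells of a type and more RNA per cell cannot be told apart.

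Sox5 had 3.08, 1.87 and 1.47 CPM in 0%-Axitinib replicates 1 to 3 and 4.18, 4.01 and 2.43 CPM in 3%-Axitinib replicates 1 to 3. The groups overlapped, since 3%-Axitinib replicate 3 lay below 0%-Axitinib replicate 1. Its log2 fold change was 0.72 (SE 0.44), with an adjusted p of 0.358 by edgeR's quasi-likelihood test. The exons of Sox5 share 9.25% of their bases with Sox5os1 on the other strand. Use of strand in the counting is not given in the sources used here. Whether reads in the shared bases were counted on Sox5 or set aside as ambiguous is therefore not known.

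Sox6, which also acts in erythroid precursors and in slow and fast muscle fibres, had 2.14, 1.17 and 15.6 CPM in 0%-Axitinib replicates 1 to 3. In 3%-Axitinib replicates 1 to 3 it had 12.0, 4.74 and 6.60 CPM. The highest sample of all 6 was 0%-Axitinib replicate 3, the other 0%-Axitinib samples were the lowest, and the groups overlapped. For Sox6 the log2 fold change was 0.30 (SE 0.94), with an adjusted p of 0.868 by edgeR's quasi-likelihood test. With limma-voom it was 1.03. Without 0%-Axitinib replicate 3 it was 2.21 and met the criterion, at an adjusted p of 0.0557 by edgeR's quasi-likelihood test. It was negative when 0%-Axitinib replicate 1 (−0.11), 0%-Axitinib replicate 2 (−0.19) or 3%-Axitinib replicate 1 (−0.12) was left out.

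The sample with the most Sox6 was also the one with the most erythroid transcripts. The 6 erythroid genes summed to 22390 CPM in 0%-Axitinib replicate 3 and to between 169 and 535 CPM in the other samples. The lowest sum, 169 CPM, was in 3%-Axitinib replicate 1, which had the next highest Sox6. Hbb-bs, a beta-globin and the most abundant of them, had 9949 CPM in 0%-Axitinib replicate 3, and Slc4a1, the anion exchanger of the red cell membrane, had 350 CPM in that sample and at most 0.758 CPM elsewhere. Of the 5 tested erythroid genes, 5 met the criterion as lower in the 3%-Axitinib group, from −3.34 for Alas2 to −5.28 for Hba-a2 on the log2 scale. The part of erythroid cells in the Sox6 level was not tested.

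The relatives of these factors gave a mixed picture. SOX8 and SOX10 belong with SOX9 to the SOXE group, and SOX13 belongs with SOX5 and SOX6 to the SOXD group. Sox8 had 1.93, 0.350 and 0.217 CPM in 0%-Axitinib replicates 1 to 3 and 5.06, 2.19 and 1.51 CPM in 3%-Axitinib replicates 1 to 3, with a log2 fold change of 1.78. Sox10, which Schwann cells depend on, had 24.1, 6.88 and 1.25 CPM in 0%-Axitinib replicates 1 to 3, against 48.8, 32.9 and 36.8 CPM in 3%-Axitinib replicates 1 to 3. Its groups did not overlap, and its log2 fold change was 1.88 (SE 0.88, adjusted p = 0.245 by edgeR's quasi-likelihood test). Sox13 had a log2 fold change of −0.42, and its groups overlapped. None of the 3 met the criterion.

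Of the SOXC genes, which act in progenitors of many tissues, Sox4 had a log2 fold change of 0.16 and Sox12 of 0.51, and neither met the criterion. Sox11 was not tested and had at most 1.10 CPM in any sample. The 7 Schwann cell genes, which include Sox10, summed to 1178, 280 and 184 CPM in 0%-Axitinib replicates 1 to 3. In 3%-Axitinib replicates 1 to 3 they summed to 1461, 1419 and 1269 CPM. Their most abundant gene was Mbp, a myelin protein, with a log2 fold change of 1.19. Ngfr had the highest log2 fold change, 2.80, and S100b, which chondrocytes also express, had the lowest, 0.61. Of the 7 tested, 2 met the criterion as higher. The part of nerve in the level of Sox10 was not tested.

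Among the secreted proteins, Chad (chondroadherin, a leucine-rich repeat protein that links chondrocyte integrins to collagen) had 3.86, 5.66 and 0.815 CPM in 0%-Axitinib replicates 1 to 3. In 3%-Axitinib replicates 1 to 3 it had 38.8, 262 and 158 CPM. The groups did not overlap, and the lowest 3%-Axitinib sample was replicate 1. The log2 fold change was 5.47 (SE 0.95, 95% confidence interval 3.22 to 7.73), with an adjusted p of 0.0965 by edgeR's quasi-likelihood test, higher in 3 of 3 samples. The log2 fold change was 4.84 without 3%-Axitinib replicate 2. Without 0%-Axitinib replicate 3 the adjusted p by the same test was 0.0393. Over the settings tried, leaving aside the fit with a lone 3%-Axitinib sample, it lay between 1.61e-09, with DESeq2, and 0.28, without 3%-Axitinib replicate 1.

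Prg4 (lubricin, the proteoglycan that lubricates joint surfaces and is made by superficial chondrocytes and synovial lining cells) had 36.5, 23.3 and 3.15 CPM in 0%-Axitinib replicates 1 to 3. In 3%-Axitinib replicates 1 to 3 it had 1236, 978 and 268 CPM. The groups did not overlap, and replicate 3 was the lowest sample in each of them. The log2 fold change was 5.30 (SE 1.03, 95% confidence interval 2.85 to 7.75), with an adjusted p of 0.0965 by edgeR's quasi-likelihood test, higher in 3 of 3 samples. Leaving out 0%-Axitinib replicate 1 gave a log2 fold change of 5.96. Without 0%-Axitinib replicate 3 the adjusted p by the same test was 0.0379. Over the settings tried, leaving aside the fit with a lone 3%-Axitinib sample, it lay between 1.90e-08, with DESeq2, and 0.28, without 3%-Axitinib replicate 1. Exons of Prg4 share 4.77% of their bases with Tpr on the other strand.

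The synovial lining list did not separate the groups. Its 5 genes summed to 111, 62.4 and 70.2 CPM in 0%-Axitinib replicates 1 to 3 and to 98.8, 47.1 and 94.0 CPM in 3%-Axitinib replicates 1 to 3. The most abundant was Cd55, with a log2 fold change of −0.03. Htra4 had the highest, 2.24, and met the criterion, and Tspan15 had the lowest, −0.58. The median over the 5 tested genes was 0.03, beside −0.03 over all tested genes.

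Snorc, a small membrane-spanning proteoglycan of cartilage, had counts of 0, 6 and 1 in 0%-Axitinib replicates 1 to 3 and of 8, 121 and 104 in 3%-Axitinib replicates 1 to 3. These were 0, 0.350 and 0.0543 CPM in the 0%-Axitinib group and 0.880, 11.0 and 6.02 CPM in the 3%-Axitinib group. The groups did not overlap, although 3%-Axitinib replicate 1 lay closer to the 0%-Axitinib samples than to the other 3%-Axitinib samples. The fitted log2 fold change was 5.43 (SE 1.29), with an adjusted p of 0.0986 by edgeR's quasi-likelihood test, and rested on 7 reads in the 0%-Axitinib group. Leaving out a single library gave 7.42 for 0%-Axitinib replicate 2, 4.84 for 0%-Axitinib replicate 1 and 4.67 for 3%-Axitinib replicate 2. Snorc entered the test through its 3%-Axitinib counts alone, so its fold and p are descriptions and give no support.

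Cilp (cartilage intermediate layer protein, a matrix protein that binds TGF-beta) had 219, 237 and 61.4 CPM in 0%-Axitinib replicates 1 to 3 and 387, 246 and 296 CPM in 3%-Axitinib replicates 1 to 3. The groups did not overlap, but 0%-Axitinib replicate 2 and 3%-Axitinib replicate 2 were close to each other. The log2 fold change was 0.84 (SE 0.50), with an adjusted p of 0.336 by edgeR's quasi-likelihood test. Its paralogue Cilp2 had 0.679, 0.117 and 0.760 CPM in 0%-Axitinib replicates 1 to 3, against 0.550, 0.729 and 0.637 CPM in 3%-Axitinib replicates 1 to 3. The groups overlapped for Cilp2, and its log2 fold change was 0.29 (SE 0.69), or −0.17 without 0%-Axitinib replicate 2.

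Cytl1, a small secreted protein found in chondrocytes, had 2.40, 0.408 and 0.543 CPM in 0%-Axitinib replicates 1 to 3 and 15.8, 0.0911 and 2.43 CPM in 3%-Axitinib replicates 1 to 3. The 3%-Axitinib group held both the highest and the lowest sample, and the groups overlapped. The log2 fold change was 2.43 (SE 1.42), with an adjusted p of 0.335 by edgeR's quasi-likelihood test. With limma-voom it was 0.97. Leaving out 3%-Axitinib replicate 1 brought it to 0.20, and leaving out 0%-Axitinib replicate 1 to 3.64. It met the criterion without 3%-Axitinib replicate 2, at 2.99, and was −3.54 without 3%-Axitinib replicates 1 and 3. Ucma, a secreted protein of the growth plate that carries many gamma-carboxylated residues, had 2 reads in 3%-Axitinib replicate 2 and 0 in the other 5 samples. No fold was formed for it in the main fit.

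Skeletal muscle transcripts were most abundant in 3%-Axitinib replicate 1, which had the highest Cytl1, and next in 3%-Axitinib replicate 3, whose Cytl1 was close to that of 0%-Axitinib replicate 1. The 12 muscle genes summed to 14650 and 8521 CPM in 3%-Axitinib replicates 1 and 3 and to 18.4 CPM in 3%-Axitinib replicate 2. In the 0%-Axitinib samples they summed to 151, 6.65 and 10.8 CPM. Acta1, skeletal actin, was the most abundant, with 3924, 0.0911 and 1852 CPM in 3%-Axitinib replicates 1 to 3. The highest log2 fold change was that of Myh1, 8.19, and the lowest that of Actn3, 5.95, with 9 of 11 tested muscle genes meeting the criterion. Tnnc2 stayed at or under 3 reads in every sample. Its exons share 74.0% of their bases with Ube2c on the other strand, and ambiguous reads were counted on no gene. The effect on its count was not tested. The part of muscle in the Cytl1 level was not tested.

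Without 3%-Axitinib replicates 1 and 3, a choice made after seeing the data, the log2 fold change was 6.23 for Chad, 5.51 for Prg4, 6.30 for Snorc and 1.92 for Sox9. Snorc entered the test through its 3%-Axitinib counts alone. With a lone 3%-Axitinib sample left, only these effect sizes are given here. The fit assumes the lone 3%-Axitinib sample to vary like the 0%-Axitinib samples. The part of muscle in these levels was not tested.

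**Figure D2:**
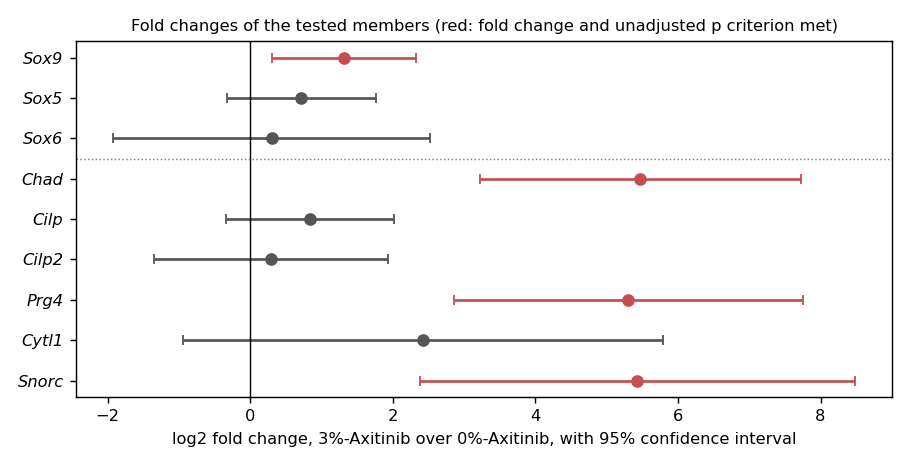
Log2 fold change of the 9 tested members, 3%-Axitinib over 0%-Axitinib, with 95% confidence intervals from edgeR's quasi-likelihood fit and in red the 4 that met the criterion. The intervals of Sox9, Chad, Prg4 and Snorc lie above 0, and those of the other 5 members include 0. Snorc entered the test through its 3%-Axitinib counts alone, so its interval is a description only.

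Compared as groups, the 3 transcription factors had a median log2 fold change of 0.72 and the 6 tested secreted or surface proteins of 3.86, beside −0.03 over all tested genes. The latter median lay between Cytl1 at 2.43 and Prg4 at 5.30, so that Chad, Prg4 and Snorc stood on one side and Cilp, Cilp2 and Cytl1 on the other. Without Snorc it was 2.43. All 9 tested members had positive log2 fold changes, or 8 of 8 without Snorc, beside 48.2% of all tested genes. However, Sox6, Cilp2 and Cytl1 were negative in some of the fits without 1 or 2 libraries. Of the 9, 5 (Sox9, Chad, Cilp, Prg4 and Snorc) did not overlap between the groups, against 14.7% of all tested genes that lay higher in this way. Without Snorc the number was 4 of 8. No member lay wholly lower, against 16.6%.

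The difference between a secreted protein and Sox9 was also taken within each sample, as log2 CPM of the protein minus log2 CPM of Sox9. For Chad it was −0.81, 0.56 and −2.24 in 0%-Axitinib replicates 1 to 3 and 1.94, 3.76 and 4.22 in 3%-Axitinib replicates 1 to 3, a shift of 4.14 between the group means. For Prg4 it was 2.38, 2.58 and −0.45 in the 0%-Axitinib samples and 6.93, 5.67 and 4.99 in the 3%-Axitinib samples, a shift of 4.36. The groups did not overlap in either ratio, and an exact two-sided permutation test gave p = 0.1, the smallest that 3 against 3 samples allow, or 0.3 after adjustment over 6 ratios. For Snorc the shift of 2.93 is a description only, since its ratios in 0%-Axitinib replicates 1 and 3 rest on 0 and 1 reads and so on the prior count. The shifts of −0.80 for Cilp2 and −0.15 for Cytl1 are likewise descriptions, since Cilp2 had 2 reads in 0%-Axitinib replicate 2 and Cytl1 had 1 read in 3%-Axitinib replicate 2. For Cilp the shift was −0.20 (exact permutation p = 0.9).

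Levels of different genes were compared per kilobase of exon, as mean ± SD of 3 samples. In the 0%-Axitinib group Cilp led with 40.6 ± 22.7 CPM per kb, followed by Prg4 at 4.90 ± 3.92, Chad at 2.05 ± 1.46 and Sox9 at 1.21 ± 0.400 CPM per kb. From Prg4 down to Cilp2 at 0.120 ± 0.0812 CPM per kb, each neighbour in the order lay within the spread of the next. In the 3%-Axitinib group the order began with Prg4 at 193 ± 117, Chad at 91.0 ± 66.4 and Cilp at 72.9 ± 16.8 CPM per kb, which did not differ beyond their spread. Snorc at 8.28 ± 7.02, Cytl1 at 5.80 ± 8.04 and Sox9 at 3.02 ± 1.41 CPM per kb followed, again within their spread. Sox6 at 0.524 ± 0.254 CPM per kb lay apart from Sox9, and Sox5 and Cilp2 had 0.246 ± 0.0670 and 0.148 ± 0.0207 CPM per kb.

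The main cartilage matrix genes that SOX9 acts on were measured in the same libraries. Of 17 genes listed, 13 were tested and had a median log2 fold change of 1.30, beside −0.03 over all tested genes. Of the 13, 5 met the criterion as higher and 0 as lower, beside 9.54% and 11.7% of all tested genes. Col9a1, 1 of the 5, entered the test through its 3%-Axitinib counts alone, and without it the count was 4 of 12. Aggrecan (Acan), with the highest log2 fold change, had 4.96, 11.8 and 2.12 CPM in 0%-Axitinib replicates 1 to 3 and 31.1, 171 and 84.3 CPM in 3%-Axitinib replicates 1 to 3. Its groups did not overlap, and its log2 fold change was 3.92 (SE 0.83, adjusted p = 0.0965 by edgeR's quasi-likelihood test). Comp, the most abundant gene of the list, had 272, 127 and 54.1 CPM and then 164, 436 and 130 CPM in the same order of samples, which overlapped. Cnmd (chondromodulin, listed under its older symbol Lect1) had the lowest, 0.37. The whole list summed to 468, 309 and 374 CPM in the 0%-Axitinib group and to 427, 1631 and 714 CPM in the 3%-Axitinib group. Matn3 and Mia, which are typical of cartilage, stayed at or under 3 reads in every sample. Exons of Mia share 41.25% of their bases with Gm21983, and the effect on its count was not tested. Of the listed genes outside the test, Scrg1 had 4, 0 and 95 reads in 0%-Axitinib replicates 1 to 3 and 0 in each 3%-Axitinib sample. The others outside the test had at most 4 reads in any sample.

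Regulators that act beside or against SOX9 in chondrocyte maturation were mixed. Of 17 genes, 14 were tested, 10 of these had a positive log2 fold change, 2 met the criterion as higher and 1 as lower, and the median was 0.81. Indian hedgehog (Ihh), made by prehypertrophic chondrocytes, had 1.20, 0.933 and 0.598 CPM in 0%-Axitinib replicates 1 to 3 and 6.60, 30.9 and 13.6 CPM in 3%-Axitinib replicates 1 to 3. Its groups did not overlap and its log2 fold change was 4.21 (SE 0.66). The receptor Pth1r, the most abundant gene of the list, had 28.1, 23.6 and 86.0 CPM and then 69.9, 585 and 164 CPM, with a log2 fold change of 2.57. The transcription factor Hif1a met the criterion as lower, with 85.3, 79.0 and 74.5 CPM against 56.1, 58.0 and 40.0 CPM and a log2 fold change of −0.63. Barx1 stayed at or under 3 reads in every sample.

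The summed levels of hypertrophic cartilage and of bone genes peaked in 3%-Axitinib replicate 2, as did Sox9, Chad and Snorc. The 5 hypertrophic chondrocyte genes summed to 1176, 1386 and 2076 CPM in the 0%-Axitinib group and to 1998, 8092 and 2165 CPM in the 3%-Axitinib group. Spp1 was the most abundant, with a log2 fold change of 1.31, Mmp13 had the lowest, 0.59, and 3 of 5 met the criterion as higher. The 7 osteoblast genes, of which Alpl is also on the hypertrophic list, summed to 7428, 3467 and 3825 CPM in the 0%-Axitinib group and to 7983, 42960 and 11600 CPM in the 3%-Axitinib group. Col1a1 was the most abundant, with 30640 CPM in 3%-Axitinib replicate 2, Ibsp had the highest log2 fold change, 4.16, and 3 of 7 met the criterion as higher. Bglap, the gene of osteocalcin, had the lowest, −1.27, with its highest level of 111 CPM in 0%-Axitinib replicate 3, where Bglap2 was highest too. The part of bone cells in the levels of the members was not tested.

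Lists of other tissues in the implantation bed were summed as well. The 6 tendon and ligament genes had 667, 283 and 121 CPM in the 0%-Axitinib group and 916, 1192 and 554 CPM in the 3%-Axitinib group, with Fmod both the most abundant and the highest in log2 fold change at 1.87. Tnmd had the lowest, 0.26, and 2 of 5 tested genes met the criterion as higher. The 8 subcutaneous fibroblast genes, led by Col1a1 at a log2 fold change of 1.79, had a median of 0.54, with 2 of 8 meeting the criterion as higher and Cd34 the lowest at 0.24. Fabp4 led the 6 adipocyte genes, whose median was −1.27. Of these 6, 2 met the criterion as lower, with Lep the lowest at −5.58 and Cidec the highest at −1.09. Lep entered the test through its 0%-Axitinib counts alone and had 1 read in the 3%-Axitinib group, and without it the count was 1 of 5. Keratins of the epidermis were high in 0%-Axitinib replicate 2 alone, where the list summed to 874 CPM against 14.3 CPM or less elsewhere. Krt1 led that list, Krt10 had a log2 fold change of −3.93 and Lgr5 of 1.92. The part of these tissues in the levels of the members was not tested.

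**Figure D3:**
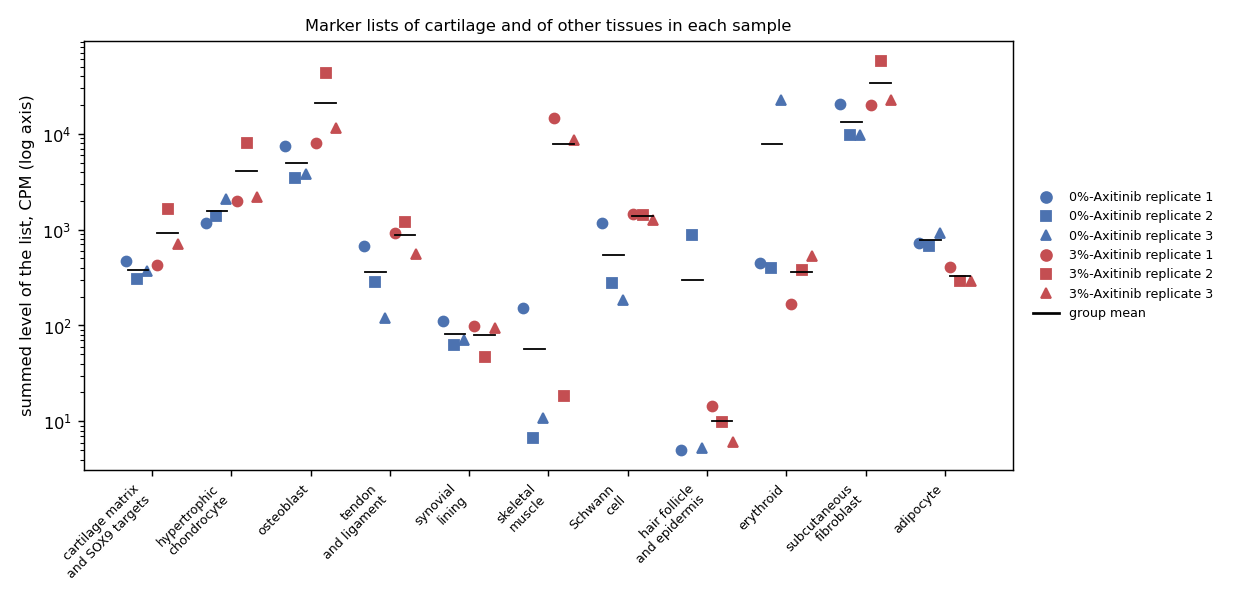
Summed level of each marker list in each sample, in CPM on a log axis, with group means as bars. Muscle transcripts are high in 3%-Axitinib replicates 1 and 3 at 14650 and 8521 CPM, erythroid transcripts in 0%-Axitinib replicate 3 at 22390 CPM, and the osteoblast list peaks in 3%-Axitinib replicate 2 at 42960 CPM.

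The genes most like each member across the 6 samples were found by the root mean square difference of log2 CPM centred on each gene's mean. Chad was nearest to Acan (0.81 on the log2 scale), Ihh (1.03) and Bdkrb1 (1.23). Snorc was nearest to Acan (0.63), Ihh (0.83) and Panx3 (0.90), the last a channel protein of hypertrophic chondrocytes and osteoblasts with 97.4 CPM in 3%-Axitinib replicate 2. The distances of Snorc rest in part on the prior count, with 0 and 1 reads in 0%-Axitinib replicates 1 and 3. Prg4 shared Bdkrb1 (0.76) with Chad and was also near the metallothionein Mt2 (1.03). Mt2 had 174, 141 and 75.9 CPM in 0%-Axitinib replicates 1 to 3 and 3731, 2503 and 1490 CPM in 3%-Axitinib replicates 1 to 3. Thus Prg4 and Mt2 shared an order of samples, in which 3%-Axitinib replicate 1 was highest, while Chad, Snorc, Acan and Ihh were highest in 3%-Axitinib replicate 2.

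Sox9 was nearest to Nmnat2 (0.10), Dixdc1 (0.11) and P3h4 (0.12), the last a protein of the collagen hydroxylation machinery with 34.6, 17.4 and 25.5 CPM against 51.9, 95.9 and 47.8 CPM. Sox5 was nearest to Magi2 (0.06), Zfp125 (0.10) and Cabp1 (0.11). The nearest to Sox6 were Gm43813 (0.38), the muscle kinase gene Srpk3 (0.39) and ENSMUSG00000110126 (0.39), all with their highest level in 0%-Axitinib replicate 3. Cilp was nearest to Traf3ip2 (0.12), Cd14 (0.16) and Lrrc10b (0.18), which like Cilp were lowest in 0%-Axitinib replicate 3. Cytl1 was nearest to Mylk4 (0.79), a kinase gene of striated muscle, Prkaa2 (0.81) and Mlxipl (0.85). These distances rest in part on the prior count, since Cytl1 and Prkaa2 had 1 read and Mylk4 had 0 in 3%-Axitinib replicate 2.

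The members lie on 8 mouse chromosomes in the GRCm38 build, with Chad at chr11:94565047-94569127 and Sox9 at chr11:112782224-112787760 on the forward strand of the same chromosome. Prg4 lies at chr1:150449412-150466165 on the reverse strand and Snorc at chr1:87470271-87475482 on the forward strand. RefSeq promoters of build GRCm38.p6, from 250 bases before to 50 bases after a gene's start, were matched for 7 of the 10 members (Sox5, Sox6, Chad, Cilp, Cilp2, Cytl1 and Ucma), with 12 promoters in all since Sox6 has 6. The letters TATAA were searched on the gene's strand between 40 and 16 bases before the start. They were found in Chad and Cilp, both beginning 28 bases before the start, and in 3.52% of all 32851 promoters. The promoters of Chad, at chr11:94564977-94565056, and Cilp, at chr9:65265110-65265189, both on the forward strand, are shown because these genes share this feature and differ in their log2 fold change. TATAA stands in capitals, from 70 bases before to 10 bases after the start:
Chad: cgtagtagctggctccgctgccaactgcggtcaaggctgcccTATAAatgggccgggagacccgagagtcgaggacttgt
Cilp: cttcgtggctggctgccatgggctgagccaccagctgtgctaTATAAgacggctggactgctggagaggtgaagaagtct

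The letters ACAATG and ACAAAG, cores of the motif that SOX proteins bind, were searched on both strands of the same promoters. ACAATG was found in 12.6% and ACAAAG in 18.7% of all promoters. Among the members they occurred in promoters of Sox5 and Sox6, both SOXD genes, and a stretch of 60 bases around a match in each is shown for that reason. The Sox5 stretch lies at chr6:143947228-143947287 and that of the most upstream Sox6 promoter at chr7:116038825-116038884, both on the reverse strand and written 5′ to 3′ on the gene's strand, with the match in capitals:
Sox5: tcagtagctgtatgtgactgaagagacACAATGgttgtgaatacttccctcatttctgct
Sox6: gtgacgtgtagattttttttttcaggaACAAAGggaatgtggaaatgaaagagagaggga
These are matches of letters, and binding was not measured.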

How the data were processed

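RNA of 6 samples, 3 of the 0%-Axitinib group and 3 of the 3%-Axitinib group, was analysed. The study describes them as murine tissue around BEC. The authors deposited raw read counts per gene, and the submitters' processing notes name STAR 2.5.2b and the builds GRCm38 and mm10. The annotation release and the use of strand are not given in the sources used here. The 4 lines that name no gene were left out of library sizes and tests. In the 6 samples these lines held 3.84% to 48.4% unmapped, 2.71% to 6.65% multimapping, 3.17% to 6.14% outside annotated genes and 3.55% to 5.74% ambiguous reads. Gene positions and exon lengths came from GENCODE M21, which holds 91.0% of the gene names.

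Genes were kept by filterByExpr of edgeR 4.0.16 in R 4.3.3 with a minimum count of 10 and a minimum total of 15. All kept genes entered a single quasi-likelihood fit of 3%-Axitinib over 0%-Axitinib with TMM factors, and p-values were adjusted by Benjamini-Hochberg over all of them. Log2 CPM used a prior count of 2. Alternatives used DESeq2 1.42.0, limma 3.58.1 (voom), other scalings and filters, a replicate block and fits without single samples. The fit was tested on simulated data.

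The genes named were the 10 members and, in each of 14 lists, the gene with the highest mean CPM and the tested genes with the highest and lowest log2 fold change, all SOX genes listed, and for each member with a mean of at least 1 CPM the 3 tested genes nearest in profile, of which 1 is not reported here. Further genes were named after their values were seen. The members and lists were chosen with earlier results of these data known. Only the members and these lists are counted in the text.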

Additional observations from a re-analysis of the deposited data

Results flagged for a closer look

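Reads that STAR could not map to the mouse genome lie outside the gene counts compared here. Their share was above the highest 0%-Axitinib sample, at 14.9%, in each 3%-Axitinib sample, with 48.4% in replicate 1, 29.2% in replicate 2 and 16.8% in replicate 3. The origin of these reads was not tested.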

How the results depend on the processing

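The counts of members and of all genes past each threshold, the medians of both member groups and the log2 fold change of each tested member were recomputed under 15 alternative settings of the fit. Marker lists, other genes, ratios, the order of levels and nearest profiles were not. The number of members meeting the criterion stayed at 3 to 5. In these fits, leaving aside that with a lone 3%-Axitinib sample, 14.9% to 29.6% of all tested genes met it. The 5 members came in fits without 0%-Axitinib replicate 3, where the share of all genes was 28.2% or 29.6%. Without Snorc, 6 to 9 members were tested, and 2 to 5 had an unadjusted p of at most 0.05 by each setting's test. Beside this stood 15.2% to 34.5% of all tested genes, leaving aside the fit with a lone 3%-Axitinib sample. The 5 came without 0%-Axitinib replicate 3 and 3%-Axitinib replicate 2, a choice made after seeing the data, where the share was 34.2%. Of the members' own log2 fold changes under these settings, 119 of 132 kept their direction and their side of the criterion. Total counts moved the median of all genes from −0.03 to −0.16, and no tested member changed sign with another scaling. The labels number the replicates 1 to 3 in both groups, and same-numbered samples deviated from their group means with correlations of 0.18, −0.12 and −0.17, so the numbers were not taken as pairs.

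With the replicate block, 2 genes had an adjusted p of at most 0.05 instead of 1. The transcription factor median was 1.14 there (the value of Sox6), and Cytl1 was 1.55. In that fit 4 members met the criterion, or 3 of 8 without Snorc, beside 17.1% of all tested genes. Without a filter 15 genes had an adjusted p of at most 0.05, with limma-voom 2, and with DESeq2's Wald test 1960, among them 4 members (Sox9, Chad, Prg4 and Snorc). Leaving out single samples gave 0 to 1252 such genes and 0 to 2 such members. The 2 members, Chad and Prg4, came without 0%-Axitinib replicate 3, as did the 1252 genes. A fold change of at least 2 left 1951 of 3241 genes.

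Leaving out single samples moved the transcription factor median between 0.58 and 1.22 and that of the secreted or surface proteins between 2.76 and 4.25. The latter was 5.29 with at least 10 counts in every sample, which removes Snorc, Cilp2 and Cytl1, and 2.43 without Snorc. It was 2.99 without a filter, where it equals the fitted value of Ucma from 2 reads.

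Chosen after seeing the data, 0%-Axitinib replicate 3 and 3%-Axitinib replicate 2, which rank genes least like their own groups, were left out together. This gave 1572 genes and 3 members (Sox6, Chad and Prg4) with an adjusted p of at most 0.05, in a fit whose spread is lowered by that choice. Leaving out 3%-Axitinib replicates 1 and 3, the libraries with muscle transcripts and also chosen after seeing the data, gave 0 such genes, 1166 meeting the criterion, a secreted or surface median of 3.00, and −0.39 for Sox6 and −3.54 for Cytl1. Signs also turned for Sox6 without 0%-Axitinib replicate 1 (−0.11), 0%-Axitinib replicate 2 (−0.19) or 3%-Axitinib replicate 1 (−0.12), and for Cilp2 without 0%-Axitinib replicate 2 (−0.17). Among single samples left out, 0%-Axitinib replicate 3 gave their highest values, 2.21 and 0.65. Leaving out 0%-Axitinib replicate 3 together with 3%-Axitinib replicate 2 gave 2.47 for Sox6. Apart from the settings that change the genes or samples tested, the cause was not tested. At 3 reads or fewer, as for Ucma, a difference was not detectable at this depth.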
